A study of Homo sapiens with 12 samples.

Results

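The collagen chain genes are the genes whose symbols are built as COL, a type number, the letter A and a chain number. Of the 65975 gene identifiers in the deposited expression table, 50 carried such a name. They stood for 44 different genes, because COL11A2 was listed under 6 further identifiers that were at 0 in every library. By the structure of their chains the 44 genes fell into 11 fibrillar genes, 6 basement membrane genes of type IV, 5 genes of type VI, 10 genes of fibril-associated collagens with interrupted helices (FACIT), 2 multiplexins, 4 transmembrane collagens, 3 short-chain collagens and 3 others.

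The study asked what the histone demethylase KDM3A, which removes methyl groups from lysine 9 of histone H3, does in rhabdomyosarcoma, a childhood tumor of cells on the way to skeletal muscle. Polyadenylated RNA was sequenced from RD cells, an established line of the fusion-negative subtype, and from Rh30 cells, an established line of the fusion-positive subtype. All cells carried a lentivirus and were selected with puromycin: the Scramble groups expressed a control shRNA, and the KDM3A-sh2 groups expressed a single shRNA against KDM3A. Each of the 4 groups held 3 libraries, which the labels number as replicates without naming them as separate cultures, so the p-values below measure the spread between these libraries. The sample descriptions of the Rh30 Scramble libraries all end in the same number, whereas those of the other groups end in running numbers. Whether the Rh30 Scramble libraries are repeats of the same sample is not stated. RD cells were grown in DMEM and Rh30 cells in RPMI, so that line, subtype and medium cannot be told apart.

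Collagens are the main structural proteins of the extracellular matrix. Their chains are hydroxylated and glycosylated in the endoplasmic reticulum, wind into helical trimers with partner chains of fixed types, and after secretion are trimmed and built into fibrils, networks or filaments. Skeletal muscle fibers lie in a basement membrane whose network is type IV collagen, with type VI filaments beside it and fibrils of types I, III and V between the fibers. Type II collagen is best known as the fibril of cartilage.

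Levels are given as FPKM, fragments counted per length of transcript and per size of the library, which can be compared between genes. Summed FPKM lay between 1198300 and 1379197 per library, and 17473 to 17983 genes per library reached 1 FPKM. The files give no counts, so the absolute depth is unknown. KDM3A itself stood at 35.8, 33.9 and 30.9 FPKM in RD Scramble against 12.0, 11.2 and 13.4 FPKM in RD KDM3A-sh2, and at 27.8, 29.2 and 32.0 FPKM in Rh30 Scramble against 13.7, 13.2 and 15.4 FPKM in Rh30 KDM3A-sh2. It fell by 1.39 in RD and by 1.02 in Rh30 on the log2 scale (limma, adjusted p = 5e-05 and 0.000348). Of 5 myogenic markers, 4 reached a mean of 1 FPKM in every group, and their summed level was higher in every knockdown library of a line, although single markers went opposite ways. MYOD1 and MYOG were lower and DES and CHRNA1 higher in RD, while in Rh30 MYOD1 and MYOG were higher and CHRNA1 lower (adjusted p under 0.05), with DES at -0.12 ± 0.06 (adjusted p = 0.175). The sum spanned 2055 to 2270 FPKM in RD Scramble against 2580 to 2703 FPKM, and 2195 to 2424 FPKM in Rh30 Scramble against 2598 to 2625 FPKM. Of 10 markers of epithelial, endothelial and blood cells, 3 reached 1 FPKM in any group. The highest was CD68, a lysosomal protein of macrophages, with a mean of 22.7 FPKM in RD KDM3A-sh2. The other blood cell markers, PTPRC and CD3E, had highest group means of 0.0398 and 0.0402 FPKM. The epithelial markers CLDN4 and EPCAM had highest means of 10.9 FPKM in RD Scramble and 6.03 FPKM in Rh30 KDM3A-sh2. The part of the marker shifts in the collagen results was not tested. In bulk RNA, fewer cells of a type and less RNA per cell cannot be told apart.

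The 2 lines differed widely in how much collagen mRNA they held. Over the 43 genes with a value in every library, which leaves out COL12A1, the chains summed to 5267 ± 61.7 FPKM in RD Scramble and to 1140 ± 37.0 FPKM in Rh30 Scramble (mean ± SD, n = 3). This was 0.425% and 0.0852% of all FPKM. Of the 44 genes, 29 reached a group mean of 1 FPKM in RD and 24 in Rh30, while 9 reached 100 FPKM in RD and 5 in Rh30. In RD Scramble the order ran from COL3A1 at 2889 FPKM through COL4A2 at 466, COL5A2 at 419.8, COL4A1 at 361, COL6A1 at 231, COL6A2 at 165, COL1A1 at 125, COL14A1 at 114 and COL12A1 at 112 FPKM. In Rh30 Scramble it ran from COL4A2 at 299.9 FPKM through COL5A2 at 208, COL4A1 at 186, COL2A1 at 176, COL14A1 at 85.1 and COL12A1 at 66.1 FPKM. The libraries of neighbors in these orders did not overlap, except for COL14A1 and COL12A1 in RD and for COL4A1 and COL2A1 in Rh30.

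Between the 2 Scramble groups, 24 of the 31 collagen genes tested were lower in Rh30 than in RD and 5 were higher. Over all genes tested, 39.6% were lower and 34.9% higher. Genes were tested from a mean of 1 FPKM over both groups. COL5A3, COL11A1, COL6A2, COL6A3, COL8A1, COL9A3, COL13A1 and COL26A1 reached it only through RD, so they could not come out higher. COL11A2 and COL21A1 reached it only through Rh30 and could not come out lower. The median that follows includes all of them. The median collagen difference was -1.34 on the log2 scale, against -0.04 over all genes (-0.14 on the TPM scale, where 5 collagen genes were higher and 25 lower). COL3A1 alone made up 54.8% ± 0.448 of the collagen FPKM in RD Scramble and 2.13% ± 0.101 in Rh30 Scramble (SD, n = 3). The 5 genes higher in Rh30 were COL2A1, COL11A2 and COL27A1 of the fibrillar class, the type IV chain COL4A5 and the FACIT COL21A1. A further 12 of the 44 genes stayed under 1 FPKM in all 4 groups, among them COL4A3 and COL4A4, which form the type IV network of kidney filters, and COL10A1 of hypertrophic cartilage. The highest mean of these 12 was 0.912 FPKM, for COL8A2.

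**Figure D1:**
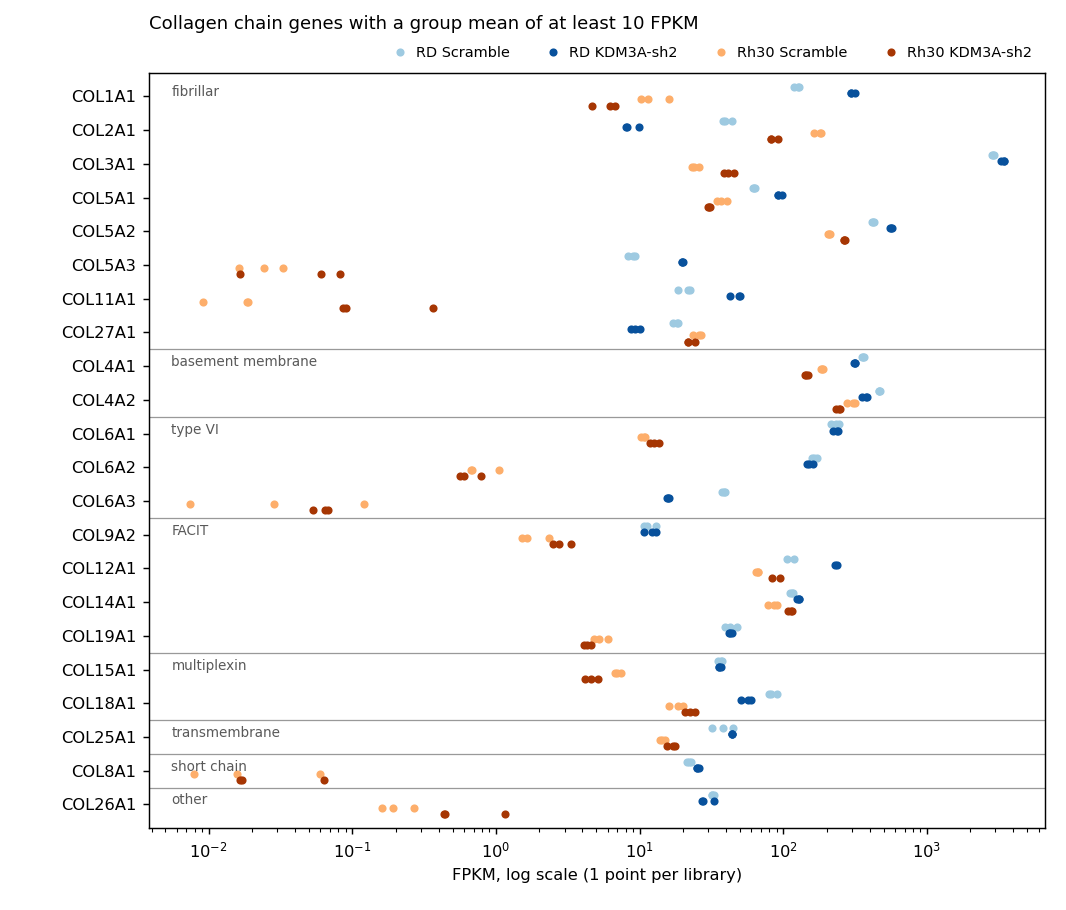
FPKM on a log axis, 1 point per library, for the 22 collagen chain genes whose mean reached 10 FPKM in any of the 4 groups, ordered by class. COL3A1 lies at 2829 FPKM or more in RD and under 50 FPKM in Rh30, COL2A1 is higher in Rh30, and COL5A3, COL11A1, COL6A3 and COL8A1 lie under 1 FPKM in all Rh30 libraries.

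With KDM3A-sh2 in RD cells, 10 of 29 tested collagen genes rose, 7 fell and 12 did not pass the test. Over all genes tested, 21.6% rose and 19.5% fell, beside 34.5% and 24.1% of the collagen genes, of which the latter is near the background. In Rh30 cells, 5 of 24 rose and 6 fell, which is 20.8% and 25% beside a background of 15.3% and 13.2%. The median collagen change was 0.01 in RD and 0.20 in Rh30 on the log2 scale, against 0.01 and 0.03 over all genes. The effect of the knockdown differed between the lines, by the test of the difference itself, for 15 of 31 collagen genes: 6 were higher and 9 lower in Rh30 than in RD, which is 19.4% and 29% beside a background of 14.4% and 13.5%. These counts include COL5A3, COL11A1 and COL6A3, which lay under 1 FPKM in every Rh30 library and were tested only through RD. On the log2(FPKM + 1) scale such levels can hardly change. With every library rescaled to the same sum of FPKM (TPM scale), the calls over all genes went from 2669 higher and 2493 lower to 2081 and 3029, and those of collagen genes to 5 and 9. Each comparison within a line shares its Scramble libraries with the comparison between the lines.

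Summed over the 43 genes, collagen went up in RD, from 5267 ± 61.7 to 5928 ± 75.5 FPKM, and down in Rh30, from 1140 ± 37.0 to 1050 ± 20.0 FPKM (mean ± SD, n = 3). In both lines the 3 libraries of each group lay apart from those of the other. The classes did not move together. Fibrillar genes went from 3590 to 4440 FPKM in RD, while type IV went from 829 to 688 FPKM, multiplexins from 121 to 91.8 FPKM and type VI from 435 to 402 FPKM. In Rh30 the fibrillar sum went from 491 to 465 FPKM and the type IV sum from 491 to 391 FPKM, while the FACIT sum without COL12A1 went from 103 to 133 FPKM. These sums were not tested. Of the pairs given here, the libraries overlapped for type VI in RD and for the fibrillar class in Rh30.

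**Figure D2:**
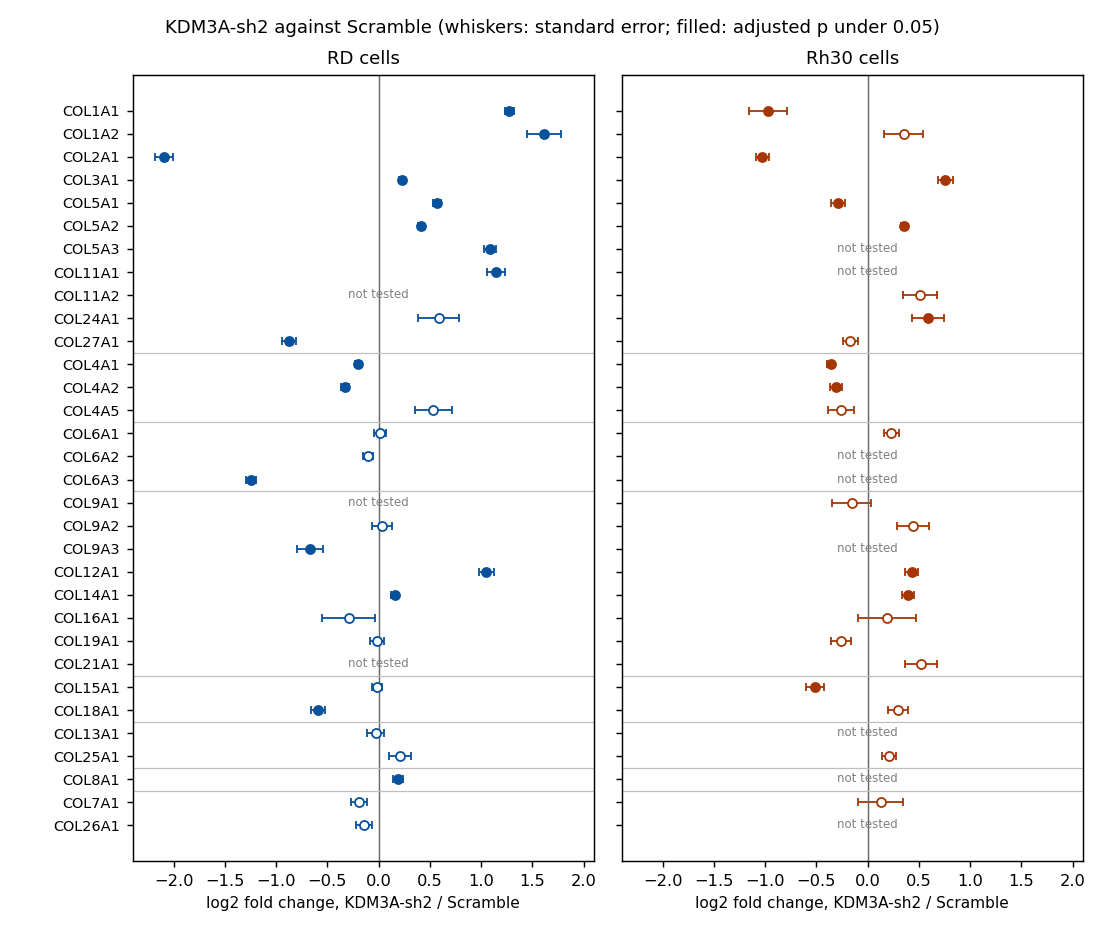
Log2 fold change with KDM3A-sh2 on the log2(FPKM + 1) scale in RD (left) and Rh30 (right), for the 32 collagen genes with a group mean of at least 1 FPKM, with standard errors as whiskers and filled points where the adjusted p was under 0.05. COL1A1 and COL5A1 rose in RD and fell in Rh30, while COL2A1, COL4A1 and COL4A2 fell in both lines.

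A sequence that many collagen transcripts share was looked for first. MicroRNAs of the miR-29 family are known to bind collagen mRNAs through the seed, bases 2 to 8, which is printed in capitals in the mature sequences of RefSeq (GRCh38):
hsa-miR-29a-3p: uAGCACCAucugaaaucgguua
hsa-miR-29b-3p: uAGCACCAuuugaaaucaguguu
hsa-miR-29c-3p: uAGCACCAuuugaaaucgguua
The entries used, 1 per name, lie at chr7:130876748-130876769, chr1:207802450-207802472 and chr1:207801865-207801886, all on the minus strand, and share 1 seed. Further entries of the same name were not looked at. The word that pairs with it, TGGTGCT on the transcript strand, was present in the longest annotated 3′ UTR of 20 of the 32 collagen genes over 1 FPKM (62.5%). It was present in 19.0% of 12709 expressed genes, and in 15.1% of the 4602 genes whose 3′ UTR was 847 to 2300 bases long. That range runs from the lower to the upper quartile of the collagen 3′ UTR lengths. The collagen share also counts genes outside the range, so the 2 shares are not matched for length. The genes with several matches include COL5A1 with 4, and COL5A3 and COL11A1 with 3 each. The following examples show the word in capitals for chains whose change is described below, with the position counted from the start of the 3′ UTR:
COL5A1 (base 1413 of 2540): gttcctgaatgtttgTGGTGCTa
COL5A3 (base 385 of 850): gcccttcacacctttTGGTGCTa
COL11A1 (base 2945 of 3205): ctatttgaatttcttTGGTGCTg
COL4A2 (base 3813 of 4603): cgtctctcttccctgTGGTGCTa
COL6A3 (base 166 of 762): catgacctatcagtaTGGTGCTa
A match is a description of the sequence and not a site shown to work, and the libraries of polyadenylated RNA do not measure mature microRNAs. Among collagen genes tested in RD, 8 of 18 with the word rose and 4 fell (median log2 change 0.20), and 2 of 11 without it rose and 3 fell (-0.03). In Rh30, 2 of 16 with the word rose and 5 fell (-0.16), and 3 of 8 without it rose and 1 fell (0.41). The medians with and without the word stood in opposite order in the 2 lines. Over all genes with an annotated 3′ UTR, the medians with and without the word were 0.02 and 0.02 in RD and 0.00 and 0.03 in Rh30. Of these genes, 26.45% with the word rose and 22.19% fell in RD, and 26.43% and 22.87% without it. In Rh30 the shares were 15.98% and 19.57% with the word, and 18.03% and 15.64% without it.

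The 7-base word TGAAGCA was chosen because earlier results of these same libraries gave it as frequent in the 3′ UTRs of genes lower with KDM3A-sh2, so its share among genes that fell is no independent result. It was present in 4 of the 32 collagen genes (12.5%), COL4A2, COL9A1, COL18A1 and COL25A1. The share was 13.9% of the genes with a 3′ UTR of 847 to 2300 bases and 19.3% of all genes. COL4A2 was lower in both lines and COL18A1 in RD, while COL9A1 and COL25A1 did not pass the test in either line where they were tested. Among collagen genes tested in RD, 0 of 3 with the word rose and 2 fell. Without it, 10 of 26 rose and 5 fell. In Rh30, 0 of 4 with it rose and 1 fell, and 5 of 20 without it rose and 5 fell. Over all genes with an annotated 3′ UTR, 18.7% with the word rose and 30.7% fell in RD, and 28.3% and 20.8% without it. The Rh30 shares were 11.4% and 26.6% with the word, and 19.1% and 13.9% without it. What lies behind these shares was not tested.

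Type I collagen, the fibril of bone, tendon and skin, is made of 2 COL1A1 chains and 1 COL1A2 chain. COL1A1 stood at 128, 119 and 128 FPKM in the RD Scramble libraries and at 296, 297 and 316 FPKM with KDM3A-sh2. In Rh30 it stood at 16.1, 10.2 and 11.4 FPKM against 6.70, 4.62 and 6.26 FPKM. The groups did not overlap in either line, and the directions were opposite. COL1A1 rose 2.43-fold in RD, by 1.27 ± 0.04 on the log2 scale (SE, limma adjusted p = 1.24e-05), and fell by 0.97 in Rh30 (SE 0.19, adjusted p = 0.0101, or 0.0839 in the test on unlogged FPKM). The effect in Rh30 minus that in RD was -2.25 (SE 0.21, adjusted p = 2.33e-05), the largest such difference among the collagens in size.

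COL1A2 was low throughout. It stood at 0.886, 0.743 and 0.595 FPKM in RD Scramble and at 3.63, 4.00 and 5.49 FPKM in RD KDM3A-sh2, a rise of 1.61 ± 0.16 on the log2 scale (adjusted p = 0.000376). In Rh30 it stood at 0.517, 1.25 and 1.16 FPKM against 1.36, 1.64 and 1.45 FPKM, a change of 0.35 ± 0.19 that did not pass the test (adjusted p = 0.215). In both lines its mean reached the minimum of 1 FPKM for testing only through the knockdown libraries, with Scramble means of 0.741 FPKM in RD and 0.975 FPKM in Rh30. The type I trimer holds COL1A1 and COL1A2 chains in a ratio of 2 to 1, but the ratio of their FPKM was 144 to 215 over the RD Scramble libraries and 57.6 to 81.6 with KDM3A-sh2. In Rh30 it was 8.22 to 31.1 in Scramble and 2.82 to 4.91 with KDM3A-sh2, lower than in Scramble in all 3 libraries.

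COL2A1 encodes the single chain of type II collagen. It stood at 39.5, 38.2 and 43.9 FPKM in RD Scramble and at 8.21, 9.95 and 8.09 FPKM with KDM3A-sh2, and in Rh30 at 184, 181 and 163 FPKM against 82.6, 82.5 and 92 FPKM. Every knockdown library lay under every Scramble library of its line. The fall was by 2.09 in RD (SE 0.09, adjusted p = 1.91e-05) and by 1.03 in Rh30 (SE 0.06, adjusted p = 0.00019) on the log2 scale, and it was the largest fall among the collagens in each line on the log2(FPKM + 1) scale. By the ratio of the group means without a pseudocount, COL1A1 was lower in Rh30 (0.466) than COL2A1 (0.487). The difference between the lines was 1.07 ± 0.12 (adjusted p = 8.9e-05), on the log2 scale. In units of FPKM the sign turns, with a difference of -58.4 FPKM.

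**Figure D3:**
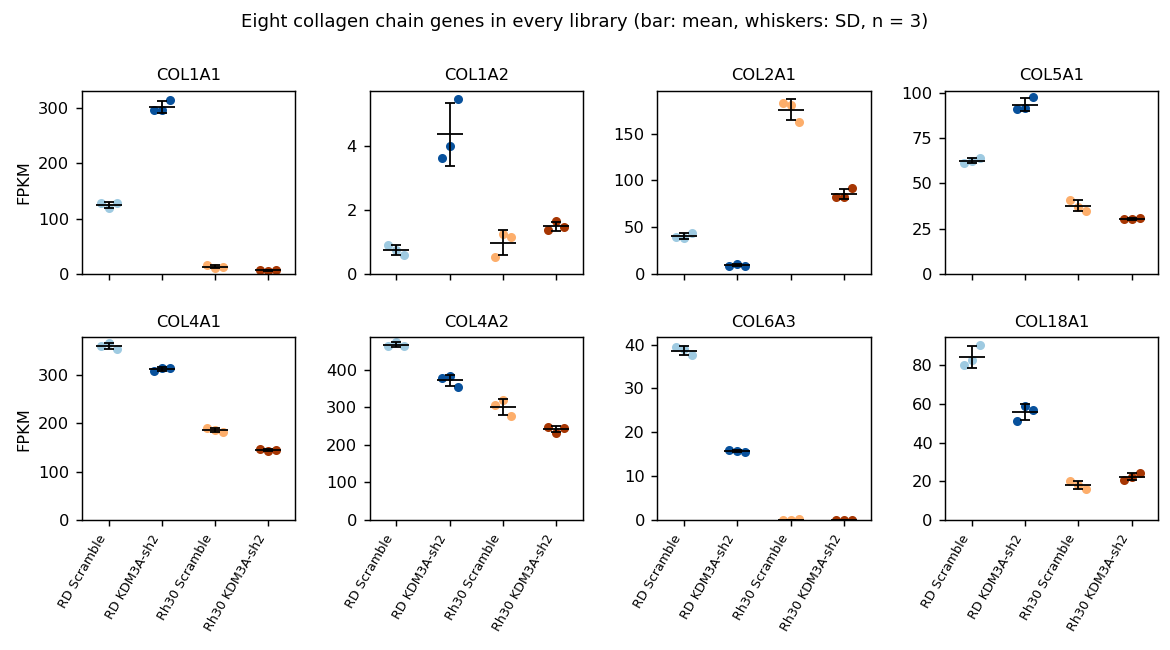
FPKM of 8 collagen chain genes in every library of the 4 groups, with the mean as a bar and the SD as whiskers (n = 3), on linear axes that start at 0. COL1A1 and COL5A1 rose in RD and fell in Rh30, COL2A1, COL4A1 and COL4A2 fell in both lines, and COL6A3 fell in RD and was near 0 in Rh30.

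Other genes of cartilage were counted beside COL2A1. Of 11 chondrocyte genes 5 were tested in RD, where 2 rose and 0 fell, and 4 in Rh30, where 2 rose and 1 fell. The count of 0 was the same at an unadjusted p under 0.05 in limma and in the alternative test on unlogged FPKM. The background is 21.6% and 19.5% in RD and 15.3% and 13.2% in Rh30, for genes that rose and fell. SOX9, the factor that activates COL2A1 in cartilage, went from a range of 39.1 to 39.4 FPKM to 44.0 to 47.3 FPKM in RD, a rise of 0.20 ± 0.04 (adjusted p = 0.0107). In Rh30 it went from 59.2 to 62.0 FPKM to 49.0 to 50.6 FPKM, a fall of 0.29 on the log2 scale (adjusted p = 0.00291). SOX6, a partner of SOX9, rose by 0.64 ± 0.14 in Rh30 (adjusted p = 0.0182). SOX9 was named after its values were seen.

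COL3A1 forms the homotrimer of type III collagen, the fibril of soft, stretching tissue. RD Scramble held 2829, 2939 and 2899 FPKM and RD KDM3A-sh2 held 3434, 3439 and 3282 FPKM, whereas Rh30 held 25.8, 23.2 and 23.8 FPKM against 41.0, 38.8 and 45.5 FPKM. COL3A1 rose in both lines, with 0.23 ± 0.03 for RD (adjusted p = 0.00162) and 0.76 ± 0.07 for Rh30 (adjusted p = 0.000759). The log2 difference between the lines was 0.53 ± 0.08 (adjusted p = 0.000622), while the difference in units of FPKM was -479. The mean rise in Rh30 equals 0.518% of the RD KDM3A-sh2 level. COL6A3, COL6A2, COL8A1 and COL11A1, which are also far higher in RD, shifted in Rh30 by 0.0627%, -0.0982%, 0.0185% and 0.349% of their RD KDM3A-sh2 levels.

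Type V collagen is buried in type I fibrils and sets their diameter. COL5A1 stood at 61.6, 62.5 and 64.0 FPKM in RD Scramble against 91.3, 91.7 and 97.9 FPKM with KDM3A-sh2. The Rh30 values were 40.8, 37.1 and 34.8 FPKM against 30.3, 30.1 and 31.0 FPKM. Like COL1A1, it rose in RD (0.57 ± 0.04, adjusted p = 0.000105) and was lower in Rh30 (-0.29 ± 0.06, adjusted p = 0.0174). The difference between the lines was -0.86 ± 0.08 (adjusted p = 1.84e-05). The Rh30 call was lost without KDM3A-sh2 library 1 or 2 (-0.29 and -0.28, adjusted p = 0.0573 and 0.0559).

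COL5A2, the partner of COL5A1, stood at 425, 414 and 419.8 FPKM in RD Scramble and at 558, 551 and 571 FPKM in the knockdown. The same gene in Rh30 read 211, 206 and 207 FPKM against 264, 269 and 264 FPKM. The rise was 0.41 ± 0.03 for RD (adjusted p = 8.79e-05) and 0.35 ± 0.03 for Rh30 (adjusted p = 0.00041), and their difference of -0.06 ± 0.03 did not pass the test (adjusted p = 0.228). The ratio of COL5A2 to COL5A1 fell in RD and rose in Rh30 in all libraries. Its RD means were 6.70 ± 0.178 and 5.98 ± 0.142, and its Rh30 means 5.56 ± 0.397 and 8.73 ± 0.212 (SD, n = 3).

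The third type V chain and the type XI chains were mostly present in 1 line only. COL5A3 stood at 8.23, 9.01 and 9.24 FPKM in RD Scramble against 20.1, 19.6 and 19.8 FPKM, a rise of 1.09 ± 0.06 (adjusted p = 4.45e-05). COL11A1, a chain of the thin fibrils of cartilage, stood at 22.2, 21.7 and 18.4 FPKM against 49.1, 42.7 and 49.7 FPKM, a rise of 1.15 ± 0.09 (adjusted p = 0.000143). Neither gene's RD groups overlapped, and in Rh30 no library exceeded 0.0821 FPKM for COL5A3 or 0.364 FPKM for COL11A1. On the log2(FPKM + 1) scale the effects differed between the lines by -1.05 ± 0.10 for COL5A3 and by -0.94 ± 0.15 for COL11A1 (adjusted p = 3.65e-05 and 0.00111), but levels this near 0 in Rh30 can hardly move on that scale. With a pseudocount of 0.1 the COL11A1 difference was -0.04 (adjusted p = 0.958). COL11A2, by contrast, had a mean of 3.5 FPKM in Rh30 Scramble and 0.699 FPKM in RD Scramble, and its Rh30 change of 0.51 ± 0.17 did not pass the test (adjusted p = 0.0594).

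COL24A1 and COL27A1 encode the fibrillar types XXIV and XXVII, found in developing bone and cartilage. COL24A1 read 6.67, 3.84 and 3.74 FPKM in RD Scramble against 6.60, 8.52 and 7.25 FPKM, groups that overlap (0.59 ± 0.20, adjusted p = 0.0526). Its Rh30 values were 2.36, 3.42 and 3.25 FPKM against 4.10, 5.43 and 5.59 FPKM, which did not overlap (0.59 ± 0.15, adjusted p = 0.0301). That call held in 9 of 15 alternative analyses. It was lost without Rh30 Scramble library 1 or 3 or KDM3A-sh2 library 2 or 3, where the adjusted p was 0.0739, 0.0571, 0.091 and 0.088. Without RD Scramble library 1, which held 6.67 FPKM, the RD change of COL24A1 was 0.81 (adjusted p = 0.00471). COL27A1 stood at 18.6, 17.1 and 18.1 FPKM in RD Scramble and at 8.72, 9.24 and 10.00 FPKM with KDM3A-sh2, and in Rh30 at 26.0, 26.7 and 23.5 FPKM against 21.6, 21.9 and 24.1 FPKM. The RD groups lay apart and the Rh30 groups overlapped: it fell by 0.88 in RD (SE 0.07, adjusted p = 0.000145), its Rh30 change of -0.17 ± 0.07 did not pass the test (adjusted p = 0.118), and the lines differed by 0.71 ± 0.10 (adjusted p = 0.000341).

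As a class, 7 of the 10 fibrillar genes tested in RD rose and 2, COL2A1 and COL27A1, fell, with a median log2 change of 0.58. Of the 7, COL1A2 was tested only through its knockdown libraries. In Rh30, 3 of 9 rose, 3 fell and the median was 0.35. The 21.6% and 15.3% of all genes that rose are the background for these counts.

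Type IV collagen forms the network of basement membranes, and its common trimer joins 2 COL4A1 chains with 1 COL4A2 chain. The 2 genes lie head to head on chromosome 13, COL4A1 on the minus and COL4A2 on the plus strand, and in RefSeq (GRCh38) their starts at positions 110307157 and 110307284 leave 126 bases between them, chr13:110307158-110307283. Of these bases 80.2% are G or C, against a median of 60.3% for the same length before 35116 starts. As the genes share this stretch, 3 pieces of its plus strand are shown, with a CCAAT box, a C-rich element and a GC box in capitals:
chr13:110307169-110307196: gccgagctccCCAATttgttggcgctgc
chr13:110307188-110307215: tggcgctgccCCCTCCCCCccggcggtg
chr13:110307209-110307236: ggcggtgcgcGGGCGGcgcctcaaaggg
Each word was searched on both strands. In windows of this length before the 35116 starts, CCAAT was found in 21.1%, CCCTCCCCC in 3.23% and GGGCGG in 34.6%. Neighboring pieces overlap, but the capitals do not.

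Both genes fell in both lines. COL4A1 stood at 360.4, 367 and 355 FPKM in RD Scramble against 309, 315 and 314 FPKM, and in Rh30 at 190.0, 186 and 182 FPKM against 147, 143 and 145 FPKM. COL4A2 stood at 462, 473 and 462 FPKM in RD Scramble against 377, 382 and 354 FPKM, and in Rh30 at 306, 318 and 276 FPKM against 248, 232 and 243 FPKM. No knockdown library reached the lowest Scramble library of its line for either gene.

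COL4A1 fell by 0.21 in RD and by 0.36 in Rh30 on the log2 scale (SE 0.03 and 0.03, adjusted p = 0.00156 and 0.000667). COL4A2 fell by 0.33 and 0.31 (SE 0.04 and 0.06, adjusted p = 0.000636 and 0.00935). The difference between the lines was -0.15 ± 0.04 for COL4A1 (adjusted p = 0.0126) and 0.02 ± 0.07 for COL4A2 (adjusted p = 0.883). The COL4A1 call was lost in limma without a trend (adjusted p = 0.0512) and in the test on unlogged FPKM, where the sign turned (6.81 FPKM, adjusted p = 0.34). The ratio of COL4A2 to COL4A1 lay between 1.13 and 1.71 in all 12 libraries, so that the chain needed in fewer copies had the higher mRNA level. COL4A5, a chain of another type IV network, was found at 2.60 and 4.17 FPKM in RD and at 5.35 and 4.26 FPKM in Rh30. It passed the test in neither line (adjusted p = 0.052 and 0.165), and its difference between the lines of -0.80 ± 0.23 did (adjusted p = 0.0247). That difference was lost without RD KDM3A-sh2 library 3, Rh30 Scramble library 2 or 3, or Rh30 KDM3A-sh2 library 3 (adjusted p = 0.0579, 0.0555, 0.0568 and 0.0531). Without RD Scramble library 3 the RD change of COL4A5 was called, at 0.69 (adjusted p = 0.0254), and without Rh30 Scramble library 1 its Rh30 change was called, at -0.39 (adjusted p = 0.0434).

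Type VI collagen makes beaded filaments around muscle fibers from 1 chain each of COL6A1, COL6A2 and COL6A3 or a COL6A3-like chain. COL6A1 stood at 215, 234 and 245 FPKM in RD Scramble against 221, 236 and 241 FPKM, and COL6A2 at 158, 164 and 173 FPKM against 147, 162 and 152 FPKM. For both the groups overlapped and the test was not passed (0.01 ± 0.06 and -0.10 ± 0.05, adjusted p = 0.876 and 0.145). COL6A3, in contrast, went from 39.5, 38.9 and 37.5 FPKM to 15.9, 15.7 and 15.6 FPKM, with no overlap. It fell by 1.24 on the log2 scale (SE 0.05, adjusted p = 1.24e-05), whereas its trimer partners did not pass the test. The ratio of COL6A1 to COL6A3 went from 5.99 ± 0.546 to 14.8 ± 0.821 and that of COL6A2 to COL6A3 from 4.27 ± 0.305 to 9.77 ± 0.544 (SD, n = 3). COL6A3 lies on chromosome 2, whereas COL6A1 and COL6A2 are both on chromosome 21.

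In Rh30 the type VI chains other than COL6A1 were near or under 1 FPKM. COL6A1 read 10.2, 10.9 and 10.7 FPKM in Scramble against 12.6, 11.8 and 13.7 FPKM, without overlap, but did not pass the test (0.23 ± 0.07, adjusted p = 0.0521). COL6A2 ranged from 0.561 to 1.05 FPKM and COL6A3 from 0.0074 to 0.12 FPKM over the 6 Rh30 libraries. The COL6A3 effect differed between the lines by 1.26 ± 0.09 (adjusted p = 5.44e-06), with the same limit as for COL5A3 that a level near 0 cannot fall. COL6A5 and COL6A6, the other chains that can take the place of COL6A3, were under 0.1 FPKM in every group.

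FACIT collagens sit on the surface of fibrils and link them to each other and to other matrix proteins. COL12A1 had no usable value in 1 library each of RD Scramble, RD KDM3A-sh2 and Rh30 KDM3A-sh2, which the fits drop. It read 119 and 106 FPKM in RD Scramble against 228 and 238 FPKM, and 67.2, 64.7 and 66.5 FPKM in Rh30 Scramble against 83.9 and 95.2 FPKM. No groups overlapped, and it rose by 1.05 ± 0.07 in RD (4 libraries, limma adjusted p = 0.000448) and by 0.43 ± 0.06 in Rh30 (5 libraries, limma adjusted p = 0.00624). The difference between the lines was -0.62 ± 0.10 (9 libraries, limma adjusted p = 0.00319).

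COL14A1, its close relative, stood at 115, 112 and 116 FPKM in RD Scramble against 129, 125 and 128 FPKM, and in Rh30 at 85.8, 78.7 and 90.8 FPKM against 109, 116 and 113 FPKM. The groups lay apart in both lines. It rose by 0.16 ± 0.03 in RD and by 0.40 ± 0.06 in Rh30 (adjusted p = 0.00958 and 0.00386), with a difference of 0.24 ± 0.07 between the lines (adjusted p = 0.0227) that was lost in 4 of 21 alternative analyses. Among these were the fits without RD Scramble library 3, RD KDM3A-sh2 library 2 and Rh30 KDM3A-sh2 library 2 (0.23, 0.23 and 0.22, adjusted p = 0.0524, 0.0516 and 0.0542). Of the collagens tested in both lines, COL14A1, COL12A1, COL3A1 and COL5A2 rose in both. How many of all genes did so was not counted.

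Type IX collagen coats cartilage fibrils and joins the chains COL9A1, COL9A2 and COL9A3. COL9A3 went from 5.41, 4.79 and 5.44 FPKM in RD Scramble to 2.66, 3.55 and 2.58 FPKM, without overlap, a fall of 0.67 on the log2 scale (SE 0.12, adjusted p = 0.00503). COL9A2 read 10.8, 11.2 and 12.9 FPKM against 12.1, 13 and 10.7 FPKM, and the groups overlapped (0.03 ± 0.10, adjusted p = 0.807). In Rh30, COL9A2 read 1.51, 2.35 and 1.65 FPKM against 2.73, 2.48 and 3.30 FPKM without overlap (0.44 ± 0.16, adjusted p = 0.0768, or 0.57 and 0.0465 without Scramble library 2). COL9A1 had its highest group mean, 1.51 FPKM, in Rh30 Scramble. Exons of COL9A3 overlap TCFL5 on the opposite strand, at up to 21.4 FPKM, whose own change in RD was -0.15 ± 0.07 (adjusted p = 0.15). Whether strand was used in counting is not given in the sources used here.

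COL19A1, known from early muscle development, stood at 47.9, 39.4 and 42.9 FPKM in RD Scramble against 42.0, 42.4 and 43.8 FPKM, with overlap and no difference that passed the test (-0.02 ± 0.07, adjusted p = 0.872). In Rh30 it read 6.01, 5.24 and 4.84 FPKM against 4.28, 4.56 and 4.08 FPKM, without overlap (-0.26 ± 0.10, adjusted p = 0.0948). Its exons overlap LMBRD1 on the opposite strand, at up to 30.4 FPKM. LMBRD1 stood at 22.2 to 24.1 FPKM in RD Scramble against 26.7 to 30.4 FPKM with KDM3A-sh2, without overlap. The Rh30 ranges of LMBRD1, 15.3 to 17.9 FPKM and 16.8 to 18.6 FPKM, overlapped. COL16A1, a FACIT of dermis and cartilage, had group means between 4.71 and 7.94 FPKM and passed the knockdown test in neither line. COL21A1, a FACIT of vessel walls, was higher in Rh30, at 3.88 ± 0.912 FPKM in Scramble and 5.96 ± 0.838 FPKM with KDM3A-sh2 (SD, n = 3), and its adjusted p of 0.0501 missed the threshold (0.66, adjusted p = 0.0282 without Scramble library 3).

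The multiplexins COL15A1 and COL18A1 anchor basement membranes, and endostatin is cleaved from the end of COL18A1. COL15A1 stood at 37.6, 37.0 and 34.9 FPKM in RD Scramble against 35.8, 35.8 and 36.6 FPKM. The Rh30 libraries read 6.73, 6.95 and 7.37 FPKM against 5.10, 4.60 and 4.19 FPKM. RD groups overlapped (-0.02 ± 0.05, adjusted p = 0.802), whereas in Rh30 the gene fell by 0.51 (SE 0.09, adjusted p = 0.00747), and the lines differed by -0.50 ± 0.09 (adjusted p = 0.00208), a call lost in the test on unlogged FPKM (-1.95 FPKM, adjusted p = 0.16).

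COL18A1 changed in the other line. It stood at 80.0, 82.6 and 90.7 FPKM in RD Scramble against 51.2, 59.2 and 56.9 FPKM, a fall of 0.59 (SE 0.07, adjusted p = 0.000771). The Rh30 values were 20.1, 18.4 and 16.0 FPKM against 20.7, 22.4 and 24.2 FPKM, which did not overlap but did not pass the test (0.30 ± 0.10, adjusted p = 0.0593, or 0.37 and 0.0453 without Scramble library 1). The difference between the lines was 0.89 ± 0.13 (adjusted p = 0.000461). SLC19A1, a folate carrier whose exons overlap COL18A1 on the opposite strand, reached 31.1 FPKM and changed by -0.08 ± 0.07 in RD and by 0.08 ± 0.08 in Rh30 (adjusted p = 0.412 and 0.514).

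Of the transmembrane collagens, COL25A1, which acts where motor nerves meet muscle, stood at 44.5, 37.8 and 32.1 FPKM in RD Scramble against 43.6, 43.8 and 44.2 FPKM, and in Rh30 at 14.2, 13.8 and 15 FPKM against 17.1, 15.5 and 17.6 FPKM. RD groups overlapped, those of Rh30 did not, and neither change passed the test (0.21 ± 0.11 and 0.21 ± 0.07, adjusted p = 0.163 and 0.06). COL25A1 was called in RD without Scramble library 1 (0.32, adjusted p = 0.02) and in Rh30 without KDM3A-sh2 library 2 (0.26, adjusted p = 0.0478). COL13A1, also of the neuromuscular junction, had means of 7.81 and 7.65 FPKM in RD and under 0.2 FPKM in Rh30.

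COL8A1, a short-chain collagen of vessel walls and the cornea, stood at 22.9, 22.2 and 21.4 FPKM in RD Scramble against 26.0, 25.1 and 25.1 FPKM, without overlap, and rose by 0.19 ± 0.05 (adjusted p = 0.0196). This call was lost without RD Scramble library 2 or 3 or KDM3A-sh2 library 1 (adjusted p = 0.0568, 0.0584 and 0.0674), and no Rh30 library exceeded 0.0632 FPKM. COL26A1 read 31.8, 33.1 and 32.1 FPKM against 27.3, 33.2 and 27.5 FPKM in RD, with overlap (-0.14 ± 0.08, adjusted p = 0.199, or -0.23 and 0.0181 without KDM3A-sh2 library 2), and 0.16 to 1.16 FPKM in Rh30. COL7A1, the anchoring fibril of skin, had means of 6.42 and 5.50 FPKM in RD and of 2.1 and 2.48 FPKM in Rh30, and passed the test in neither line. Its RD groups did not overlap (-0.19, limma adjusted p = 0.0859). The RD fall of COL7A1 was called in limma without a trend and in the test on unlogged FPKM (adjusted p = 0.035 and 0.0379).

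The enzymes and chaperones that make collagen are a list of 25 genes, of which 16 of 23 tested in RD rose and 3 fell, with a median log2 change of 0.34, beside 21.6% and 19.5% of all genes. In Rh30, 5 of 22 rose and 6 fell, with a median of 0.01, beside 15.3% and 13.2%. The effect was lower in Rh30 than in RD for 15 of 24 genes and higher for 1, beside the background of 13.5% and 14.4%. In RD the list was led by ADAMTS14, which trims the amino end of procollagen (0.98 ± 0.09, adjusted p = 0.00032), the galactosyltransferase COLGALT2 (0.90 ± 0.08, adjusted p = 0.000242), and the prolyl 3-hydroxylase P3H2 (0.86 ± 0.09, adjusted p = 0.000408). PCOLCE, which speeds the trimming of the carboxyl end, fell by 1.23 in RD (SE 0.07, adjusted p = 4.86e-05). SERPINH1, the collagen chaperone HSP47, was lower in both lines, by -0.21 ± 0.04 in RD and -0.46 ± 0.04 in Rh30 (adjusted p = 0.00577 and 0.000395), and P4HA1, a prolyl 4-hydroxylase, rose in RD by 0.65 ± 0.04 and fell in Rh30 by 0.44 (adjusted p = 5.01e-05 and 0.000644). SERPINH1 and P4HA1 were chosen, in both lines, after their values were seen.

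**Figure D4:**
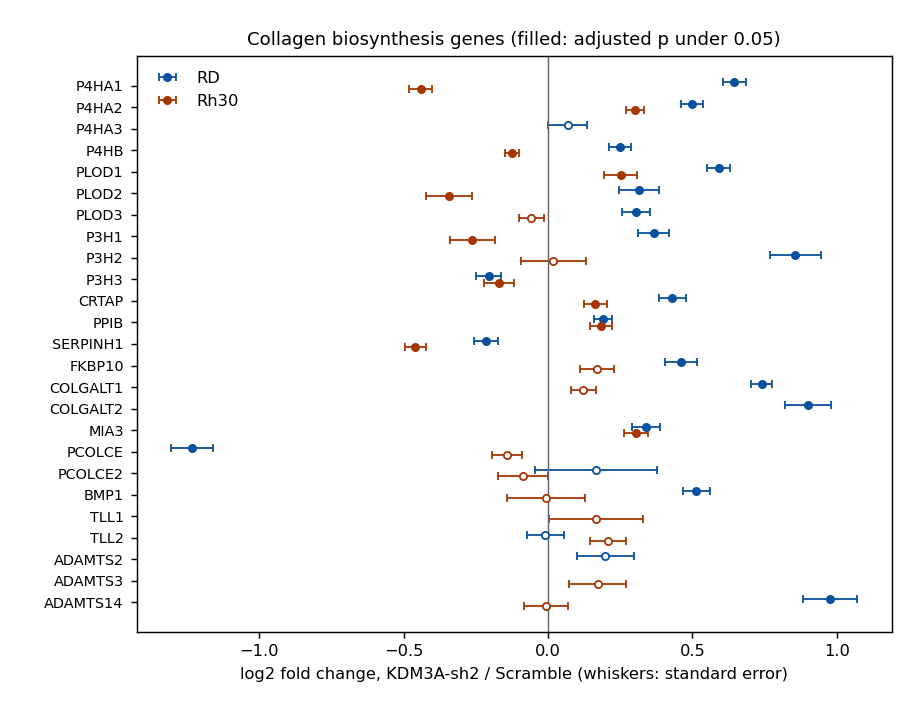
Log2 fold change with KDM3A-sh2 on the log2(FPKM + 1) scale for the 25 collagen biosynthesis genes in RD (blue) and Rh30 (brown), with standard errors as whiskers, filled points where the adjusted p was under 0.05 and no point where a gene was not tested. Most RD points lie right of 0, PCOLCE is the lowest, and the Rh30 points lie on both sides of 0.

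In the lists that follow, the background for genes that rose and fell is again 21.6% and 19.5% in RD and 15.3% and 13.2% in Rh30. Among 11 collagen receptors, 6 of 7 tested rose in RD and 0 fell (limma, also 0 at an unadjusted p under 0.05 and in the test on unlogged FPKM), led by the integrin chain ITGA10 (1.24 ± 0.09, adjusted p = 0.000126) and the receptor kinase DDR1 (0.78 ± 0.10, adjusted p = 0.00118). In Rh30, 1 of 6 rose, the platelet receptor GP6 (0.94 ± 0.09, adjusted p = 0.000815), and 1 fell. Of 15 partners of type IV collagen in the basement membrane, 3 of 13 tested in RD rose and 6 fell, and 2 of 11 in Rh30 rose and 5 fell, so that the shares that rose were near the background. The laminin chain LAMA2 of muscle rose in both lines (0.84 ± 0.13 and 0.66 ± 0.08, adjusted p = 0.00206 and 0.00178). NID1, which links laminin to type IV collagen, fell by 0.75 in RD (adjusted p = 5.18e-05), and its relative NID2 rose by 0.71 ± 0.06 (adjusted p = 0.000229). LAMC3 fell by 0.89 in RD (adjusted p = 0.00334), and in Rh30 LAMA5 fell by 1.10, LAMC1 by 0.75 and LAMA4 by 0.62 (adjusted p = 9.47e-05, 7.34e-05 and 0.0202). Among 11 genes of collagen turnover, 4 of 9 rose and 2 fell in RD (1 on the TPM scale), where the gelatinase MMP9 fell by 1.29 (adjusted p = 0.00111) and the surface protease FAP rose by 0.61 ± 0.11 (adjusted p = 0.00394). In Rh30, 1 of 7 rose and 4 fell, led by the collagenase MMP1, which fell by 1.42 (SE 0.21, adjusted p = 0.00428). Both MMP9 in RD and MMP1 in Rh30 reached the minimum of 1 FPKM for testing only through the Scramble libraries, with means of 1.92 against 0.185 FPKM and of 1.93 against 0.077 FPKM.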

How the data were processed

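Libraries were made from polyadenylated RNA with a directional kit and sequenced single-end. The read length is 151 bases in the labels and differs in the study's methods. The submitters' processing notes name GSNAP, SAMtools, Cufflinks and GRCh38. The annotation release and the strand setting are not given in the sources used here. The authors deposited a table of FPKM values for 12 libraries, in which 999999999 stands for a missing value (17 genes) and was read as such. Where an identifier appeared more than once (117 identifiers), only the entry of higher mean entered the analysis. Values are deposited FPKM, not counts, so no count model was used.

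Differences were computed as log2(FPKM + 1) with a pseudocount of 1, for genes whose mean reached 1 FPKM over the libraries of the fit, by limma 3.58.1 (linear model with a mean-variance trend) in R 4.3.3. P-values were adjusted after Benjamini and Hochberg over all genes tested, with a threshold of 0.05. The 4 comparisons were KDM3A-sh2 against Scramble in RD and in Rh30, the difference of these effects (Rh30 minus RD), and Rh30 against RD Scramble. The study's methods used ANOVA, run here on unlogged FPKM as an alternative. Values after ± are standard errors for log2 changes. An exact two-sided permutation test of 3 against 3 libraries cannot go below p = 0.1.

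All collagen genes with a group mean of at least 1 FPKM are named, with the value in every library from a mean of 10 FPKM, or when called with an absolute log2 change of at least 0.58. Companion genes are named when called with that change, at most 4 per list and line, apart from those said to be chosen later. Opposite-strand partners were added after the overlaps were seen. The members, lists and words were chosen with earlier results of these data known, so no list was tested. Gene overlaps and 3′ UTRs came from GENCODE 29 (GRCh38), which holds 86.3% of the identifiers, and microRNAs and starts from RefSeq. The longest annotated 3′ UTR of a gene was used. The scripts were tested on simulated data. Python 3.11.15, pandas 2.3.3, NumPy 2.4.6, SciPy 1.17.1 and matplotlib 3.10.9 were used.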

Additional observations from a re-analysis of the deposited data

Results flagged for a closer look

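The effect of KDM3A-sh2 differed between the 2 lines for 15 collagen genes, by the test of the difference itself (limma, adjusted p under 0.05, on 12 libraries, or on 9 for COL12A1). As Rh30 minus RD on the log2(FPKM + 1) scale, the difference was -2.25 for COL1A1, -1.26 for COL1A2, -1.05 for COL5A3, -0.94 for COL11A1, -0.86 for COL5A1, -0.80 for COL4A5, -0.62 for COL12A1, -0.50 for COL15A1 and -0.15 for COL4A1. It was 0.24 for COL14A1, 0.53 for COL3A1, 0.71 for COL27A1, 0.89 for COL18A1, 1.07 for COL2A1 and 1.26 for COL6A3. COL5A3, COL11A1 and COL6A3 lay under 1 FPKM in every Rh30 library, where the log2(FPKM + 1) scale leaves little room for a change. COL1A1 and COL5A1 passed the test in both lines with opposite signs. How many of all genes did so was not counted.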

How the results depend on the processing

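Up to 21 alternatives were run per comparison: a pseudocount of 0.1, no filter or a filter at 10 FPKM, 2 other scalings, limma without a trend, ANOVA on FPKM, summed duplicate entries, a fit on all 12 libraries, a replicate block, and each library left out. In Rh30, ANOVA called 3 collagen genes higher and 3 lower, and the fit on all 12 libraries called 10 higher. Over all genes, ANOVA called 1899 higher and 1761 lower in Rh30, against 2721 and 2348 in the main fit. The fit on all 12 libraries called 3216 of 18532 genes higher, and its filter took the mean over all 12 libraries. The collagen calls lost in ANOVA were those of COL1A1, COL12A1, COL5A1, COL4A2 and COL24A1 (adjusted p = 0.0839, 0.0556, 0.0662, 0.0541 and 0.085), and the cause was not tested. Of the genes higher in Rh30 than in RD Scramble, 2 were called with the filter at 10 FPKM, under which fewer genes are tested. The other counts of collagen genes stayed within 1.5 times. With each library left out in turn they ranged from 9 to 12 higher and 7 to 8 lower in RD, from 4 to 6 and 5 to 7 in Rh30, from 5 to 8 and 8 to 9 for the difference of effects, and from 5 to 6 and 23 to 24 for the Scramble groups.

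Same-numbered libraries did not deviate together (correlations of -0.07 to 0.06), and the labels do not say whether the numbers pair them. With the replicate block 11 collagen genes were higher and 7 lower in RD, 6 and 6 in Rh30, 7 and 9 for the difference of effects, and 6 and 23 for the Scramble groups. The counts over all genes were, in the same order, 3286 and 2980, 1799 and 1623, 2499 and 2288, and 6375 and 7175.

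Signs turned in uncalled changes near 0. On the TPM scale, the RD change of COL19A1 was 0.016, that of COL15A1 0.017, and the difference of effects of COL4A2 was -0.041. Leaving out 1 library gave ranges in RD of -0.023 to 0.11 for COL9A2, -0.083 to 0.055 for COL19A1, -0.039 to 0.056 for COL6A1, -0.10 to 0.012 for COL13A1 and -0.048 to 0.0056 for COL15A1. In Rh30 they were -0.12 to 0.37 for COL16A1, -0.27 to 0.018 for COL9A1 and -0.025 to 0.38 for COL7A1, and for the difference of effects -0.041 to 0.061 for COL4A2. Called differences of effects turned when taken in units of FPKM, where they were -58.4 for COL2A1, -479 for COL3A1 and 6.81 for COL4A1. The COL15A1 difference was lost there (adjusted p = 0.16).

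Without counts, the precision of low FPKM values is unknown, 3 libraries per group limit every test, and with 1 shRNA and 1 line per subtype an effect of KDM3A and one of this shRNA, or of the subtype and of the line, cannot be told apart.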
